A study of Homo sapiens with 4 samples.

Results

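SR splicing factor genes and their non-coding transcripts were described in microglia-like cells with and without SHIP1. The genes are SRSF1, SRSF2, SRSF3, SRSF4, SRSF5, SRSF6, SRSF7, SRSF11, TRA2A and TRA2B, taken by name, which is 10 of the 35604 named genes in the data. All of their transcripts were used, 113 of 185318 that could be tied to a gene name. By the GENCODE annotation 39 of the 113 are protein_coding, 21 nonsense_mediated_decay, 35 retained_intron and 18 processed_transcript, and 13 had an estimated count of 0 in every library.

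The cells, named iMGL in the labels, are microglia made in culture from WTC11, a widely used established line of human induced pluripotent stem cells. WT libraries carry the unedited genotype and S1KO libraries a knockout of SHIP1, the lipid phosphatase encoded by INPP5D, and no other treatment is named. Each genotype has 2 libraries of poly-A selected RNA, called WT 1, WT 2, S1KO 1 and S1KO 2 here. The study's design text gives 2 clones per genotype, but the labels do not tie a library to a clone, so p-values measure only the spread between these libraries.

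SR proteins bind exonic sequences through RNA recognition motifs and recruit the spliceosome through domains rich in arginine and serine, whose phosphorylation is set by the SRPK and CLK kinases. Many SR genes hold a poison exon, a highly conserved cassette exon with a stop codon in frame. Including it sends the transcript to nonsense-mediated decay, the surveillance pathway built on the UPF and SMG proteins, and several SR proteins promote inclusion of the poison exon in their own transcripts. Retained introns in these genes can keep transcripts in the nucleus.

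Poison cassette exons were found from the annotation as internal exons of nonsense_mediated_decay transcripts that lie wholly inside an intron of the gene's most abundant protein_coding transcript. The rule gave 14 exons in 7 of the 10 genes. The stretches shown run from the first base of the exon to the first stop codon in the annotated reading frame, 5′ to 3′ on the gene's strand, with the stop codon in capitals. They are shown because they are where the reading frame of an annotated decay transcript meets its stop. The SRSF7 stretch belongs to SRSF7-204 and SRSF7-205, and not to SRSF7-208, the SRSF7 decay transcript with the most counts. The TRA2B exon lies at chr3:185931577-185931852 (GRCh38, minus strand, 276 bases), the SRSF3 exon at chr6:36599821-36600276 (plus strand, 456 bases), the SRSF6 exon at chr20:43459153-43459420 (plus strand, 268 bases) and the SRSF7 exon at chr2:38748898-38749346 (minus strand, 449 bases). SRSF4 has 2 poison exons with the stop inside, and the one printed is that with the higher share of counts, at chr1:29165890-29166064 (minus strand, 175 bases).
TRA2B: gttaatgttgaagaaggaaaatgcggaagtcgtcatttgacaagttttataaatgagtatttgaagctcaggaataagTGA
SRSF3: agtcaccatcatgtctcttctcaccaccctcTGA
SRSF6: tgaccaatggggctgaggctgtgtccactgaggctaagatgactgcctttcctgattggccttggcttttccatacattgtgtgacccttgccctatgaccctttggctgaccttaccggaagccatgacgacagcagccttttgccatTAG
SRSF7: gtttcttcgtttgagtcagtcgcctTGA
SRSF4: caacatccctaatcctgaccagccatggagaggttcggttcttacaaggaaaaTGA
The frame meets its stop 81 bases into the TRA2B exon, 34 into the SRSF3 exon, 152 into the SRSF6 exon, 28 into the SRSF7 exon and 56 into the SRSF4 exon. In TRA2B, 195 bases of the exon follow the stop. The 276 bases of the TRA2B exon are a multiple of 3, as are the 456 of SRSF3. Only exons with the stop inside were printed, so that trait follows from the choice. Some of the exons not printed also hold the stop. In others it lies elsewhere: the 104-base SRSF2 exon, the 228-, 184- and 136-base SRSF4 exons and the 79-base TRA2A exon.

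The libraries hold between 21516813 and 25927881 estimated counts. Mitochondrial genes took 14.2% and 18.9% of counts in WT 1 and WT 2 against 52.32% and 39.24% in S1KO 1 and S1KO 2, which leaves 10866559 counts outside them in S1KO 1 and 21028441 in WT 2. Gene levels are counts scaled to the same library size (CPM) with the trimmed mean of M-values (TMM). INPP5D, the edited gene, stood at 356 and 441 CPM in WT against 81.0 and 97.6 CPM in S1KO, and fell by 2.16 ± 0.21 on the log2 scale (SE, edgeR adjusted p = 0.0184). That call was lost without S1KO 1 (edgeR adjusted p = 0.686) or S1KO 2 (0.312). Of 9 microglia and myeloid markers, 8 were at 1 TPM (counts per length, scaled to the same total) or more in every library, with summed levels of 4060, 3760, 1140 and 1890 TPM in WT 1, WT 2, S1KO 1 and S1KO 2. The 6 mesenchymal markers summed to 869 TPM in WT 1 and 3.05 to 4.67 TPM in the others. The 5 pluripotency markers stayed between 3.1 and 6.8 TPM, and the 6 erythroid and megakaryocyte markers between 3.35 and 6.52 TPM with PF4 and PPBP at 0. The part of mitochondrial content, depth, clone or the mesenchymal signal in the results was not tested. In bulk RNA, fewer cells of a type and less RNA per cell cannot be told apart.

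At the gene level SRSF11 was the only one of the 10 genes whose S1KO libraries both lay above both WT libraries, and none passed the test. SRSF11 (chr1:70205682-70253052, ENSG00000116754), an SR-related protein that binds the splicing factor U2AF, stood at 319 and 384 CPM in WT against 675 and 626 CPM in S1KO. The groups are well apart: the mean was 351 ± 46.1 CPM in WT and 651 ± 34.1 CPM in S1KO (SD, n = 2 each). The difference was 0.89 ± 0.20 on the log2 scale, 1.85-fold, with a 95% interval of 0.41 to 1.37 and an edgeR adjusted p of 0.0953. DESeq2 gave an adjusted p of 0.000129. The sign was the same in 13 of 13 alternatives, of which 5 passed the threshold, and the size ran from 0.36 with TPM values to 1.36 with an offset for transcript length.

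SRSF2 (chr17:76734115-76737374, ENSG00000161547), which binds exonic enhancers and also acts in transcription elongation, lay lower in S1KO. Its levels were 135 and 122 CPM in WT against 85.2 and 87.6 CPM in S1KO, with no overlap between the groups. The log2 difference was -0.57 ± 0.15 with an edgeR adjusted p of 0.134, and DESeq2 gave 0.0289. The annotation puts exons of MFSD11 on the opposite strand of this locus, and no source used here says if the libraries are stranded.

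SRSF5 (chr14:69726900-69772005, ENSG00000100650), an SR protein first described as induced by insulin, stood at 288 and 349 CPM in WT against 249 and 265 CPM in S1KO. The log2 difference was -0.31 ± 0.18 (edgeR adjusted p = 0.408). SRSF7 (chr2:38743599-38751494, ENSG00000115875), which shuttles and takes part in mRNA export, stood at 122 and 146 against 103 and 122 CPM, with neighbouring libraries of the 2 genotypes at nearly the same level. SRSF3 (chr6:36594353-36605600, ENSG00000112081), the smallest SR protein and also an export adaptor, stood at 127 and 126 against 114 and 121 CPM. TRA2A (chr7:23504780-23532041, ENSG00000164548), one of the Transformer-2 proteins that bind purine-rich enhancers, stood at 109 and 111 against 103 and 107 CPM.

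The remaining genes overlapped between genotypes. SRSF1 (chr17:58003360-58007346, ENSG00000136450), the SR protein best known for choosing between 5′ splice sites, stood at 106 and 76.8 against 87.1 and 85.7 CPM; its exons overlap those of AC015813.2 on the same strand and AC015813.5 on the other, which makes its counts less certain. SRSF4 (chr1:29147743-29181987, ENSG00000116350), a close relative of SRSF5 and SRSF6, stood at 149 and 183 against 164 and 166 CPM. SRSF6 (chr20:43457928-43464247, ENSG00000124193) stood at 241 and 184 against 170 and 186 CPM. In SRSF1, SRSF4 and SRSF6 the spread between the WT libraries was larger than the difference between genotypes. TRA2B (chr3:185915906-185938136, ENSG00000136527), the paralog of TRA2A, stood at 92.6 and 148 against 151 and 139 CPM, a log2 difference of 0.27 ± 0.24. It was -0.03 without WT 1 and 0.65 without WT 2, 0.88 with protein_coding transcripts only, 1.27 on TPM without mitochondrial genes and 1.33 with an offset for transcript length, and passed the threshold in none of 13 alternatives.

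**Figure D1:**
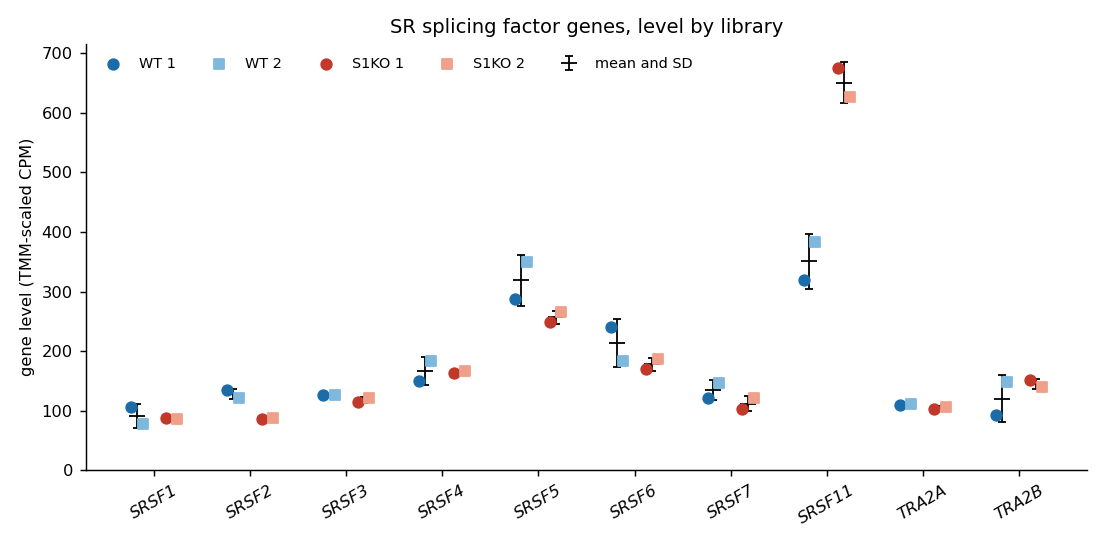
Level of each SR gene in TMM-scaled CPM (y axis) by gene (x axis), with 1 point per library and the mean and SD of the 2 libraries of each genotype in black. SRSF11 is the gene whose S1KO libraries, 675 and 626 CPM, stand farthest above its WT libraries, 319 and 384 CPM, SRSF2 stands below its WT libraries, and the other genes lie within or near their WT range.

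Counted together, 0 of the 10 genes passed the edgeR threshold, where 0.942% of the 15387 genes tested did (145 genes, 122 higher and 23 lower). The 145 became 1978 without WT 1 and 2140 without WT 2, and 0 without S1KO 1 or S1KO 2, and of the 10 genes 2 were called without WT 2. At an unadjusted p under 0.05 there were 2 of 10, SRSF11 and SRSF2, and DESeq2 called SRSF11 higher, where it called 4.31% of all genes, and SRSF2 lower, where it called 3.34% (7.66% in both directions). The S1KO libraries lay wholly above WT in 1 gene and wholly below in 5, where 26.0% and 25.7% of all genes did. The median log2 difference was -0.09 for the 10 genes and -0.02 for all genes. On log2(TPM + 1) in limma, where mitochondrial transcripts share the total, the median of all genes moved to -0.78 and the calls split into 133 higher and 2763 lower, with 3 of the 10 genes lower. With mitochondrial genes left out of the total, an alternative chosen after seeing the data, the median was -0.08 and the call among the 10 was SRSF11, higher.

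Per length, the order of the genes can be read from TPM. In WT, SRSF5 was highest at 395 and 527 TPM and SRSF1 lowest at 57.4 and 37.5 TPM. SRSF11 came next to SRSF5, at 227 and 238 TPM. In S1KO, SRSF11 was the highest in both libraries, at 256 and 352 TPM, with SRSF5 at 133 and 248 TPM and SRSF1 again lowest at 20.3 and 31.2 TPM. SRSF2, SRSF3, SRSF4, TRA2A, TRA2B, SRSF6 and SRSF7 lay between 90.3 and 181 TPM in WT, with SRSF3 the lowest of the 7 in both libraries. The 2 WT libraries of TRA2B and of SRSF6 are so far apart that their places among the others do not hold beyond the spread.

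Taken as a pool, the SR genes carried far more of their counts on decay transcripts than protein-coding genes at large, in both genotypes. Summed over the 10 genes, nonsense_mediated_decay transcripts took 17.54% and 16.23% of counts in WT and 13.42% and 14.03% in S1KO, and over all protein-coding genes 3.47% and 3.94% in WT and 3.15% and 3.74% in S1KO. Retained_intron transcripts took 14.63% and 17.77% of SR counts in WT and 10.9% and 13.11% in S1KO, against 10.38%, 11.91%, 7.47% and 10.51% over all protein-coding genes. The retained_intron share was lowest in S1KO 1, the library with the most mitochondrial counts, and highest in WT 2, in the SR genes and in all genes alike. Pooled SR shares are weighted by the genes with most counts, SRSF11 among them, which has almost no decay counts. The excess in decay share was not found in every gene. SRSF11 and TRA2A lay below all protein-coding genes in every library, and SRSF4 and SRSF5 lay near them. SRSF3, SRSF6, SRSF7 and TRA2B lay far above. The pool of all protein-coding genes includes genes without an annotated decay transcript.

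The members differ widely in which class they use. SRSF6 and SRSF7 had most of their counts, or nearly so, on decay transcripts: 59.61% and 46.42% in WT and 60.00% and 55.98% in S1KO for SRSF6, and 63.60% and 69.45% in WT and 62.45% and 68.27% in S1KO for SRSF7. For SRSF6 a single transcript, SRSF6-202, which splices in the 268-base exon, holds all of it. For SRSF7 most came from SRSF7-208, with 51.16%, 53.85%, 50.44% and 53.03% of the gene's counts in WT 1, WT 2, S1KO 1 and S1KO 2, a transcript that holds the sequence of the 449-base exon without being spliced to its start.

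TRA2B was the least coding member, with protein_coding shares of 11.57% and 6.06% in WT and 13.76% and 11.36% in S1KO. Its retained_intron share stayed within 55.35% and 57.67% in all 4 libraries, and decay transcripts held 31.21% and 36.38% in WT against 29.55% and 28.37% in S1KO. TRA2A had 39.56%, 38.45%, 38.04% and 37.30% on retained_intron transcripts. Read from counts, the retained_intron shares of both Transformer-2 genes thus lay close together between genotypes. Within that class of TRA2B, TRA2B-212 was higher and TRA2B-215 lower in S1KO. The TRA2B decay share was wholly lower in S1KO, with a difference of -4.84 points, beside 5.17 points between the WT libraries. By TPM, which weighs short transcripts more, the mean retained_intron share of TRA2B was 22.81 percentage points higher in S1KO than in WT, and its mean decay share fell short of WT, with a difference of -17.72 points. Its protein_coding share by TPM was also wholly lower in S1KO, at 13.4% and 7.4% in WT against 2.52% and 3.15%. By counts the mean of that class was 3.74 points higher in S1KO, with overlap, so its direction depends on the measure.

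SRSF3 had decay shares of 14.01% and 14.58% in WT and 12.13% and 13.49% in S1KO, and retained_intron shares of 27.08%, 38.88%, 20.33% and 33.26%. The spread of the retained_intron values within each genotype was larger than the difference between genotypes. The retained_intron share of SRSF2 also varied within genotypes, at 14.48%, 19.10%, 11.29% and 19.20%. Its decay share, at 5.06% and 4.40% in WT and 6.34% and 8.08% in S1KO, was wholly higher in S1KO. The difference was 2.48 points, beside 0.67 points between the WT libraries and 1.74 between the S1KO libraries (limma adjusted p = 0.624). SRSF4 had 13.91%, 15.55%, 10.83% and 13.79% on retained_intron transcripts and 3.77%, 5.20%, 2.95% and 3.51% on decay transcripts.

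In shares of counts, the member whose retained introns differed most was SRSF5, at 25.25% and 25.40% in WT and 12.44% and 17.27% in S1KO. The 95% Wilson intervals, which cover counting error only, were 24.31% to 26.21% and 24.59% to 26.22% in WT and 11.41% to 13.54% and 16.30% to 18.27% in S1KO. The difference in this summed share exceeds both the counting error and the spread between the libraries of each genotype, which its single transcripts do not share. Its protein_coding transcripts took 53.92% and 40.97% in WT against 65.66% and 57.77% in S1KO. The log2 odds of the retained_intron class differed by -0.98 ± 0.32 (95% interval -1.81 to -0.14, limma adjusted p = 0.280). By transcript, SRSF5-207 stood at 16.6 and 35.5 CPM in WT against 0.706 and 8.43 CPM in S1KO, and SRSF5-208 at 2.48 and 12 against 1.27 and 0.809 CPM, while SRSF5-212, the retained_intron transcript with the most counts, held 18.33%, 9.33%, 11.51% and 13.66% of the gene. SRSF5-207 held 5.75% and 10.46% in WT 1 and WT 2. The close WT values of the class thus sum transcripts that differed between WT 1 and WT 2 in opposite directions.

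SRSF1 and SRSF11 had few decay counts. SRSF1 had 3.20% and 4.52% on decay transcripts in WT, and 11.86% and 4.51% in S1KO. The higher mean of the knockout rests on S1KO 1. The transcript behind it, SRSF1-206, stood at 3.16 and 2.69 CPM in WT against 10.7 and 3.90 CPM in S1KO. SRSF11 had 0.50% and 0.60% in WT against 0.10% and 0.20% in S1KO, a log2 odds difference of -1.96 ± 0.50 (limma adjusted p = 0.383).

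**Figure D2:**
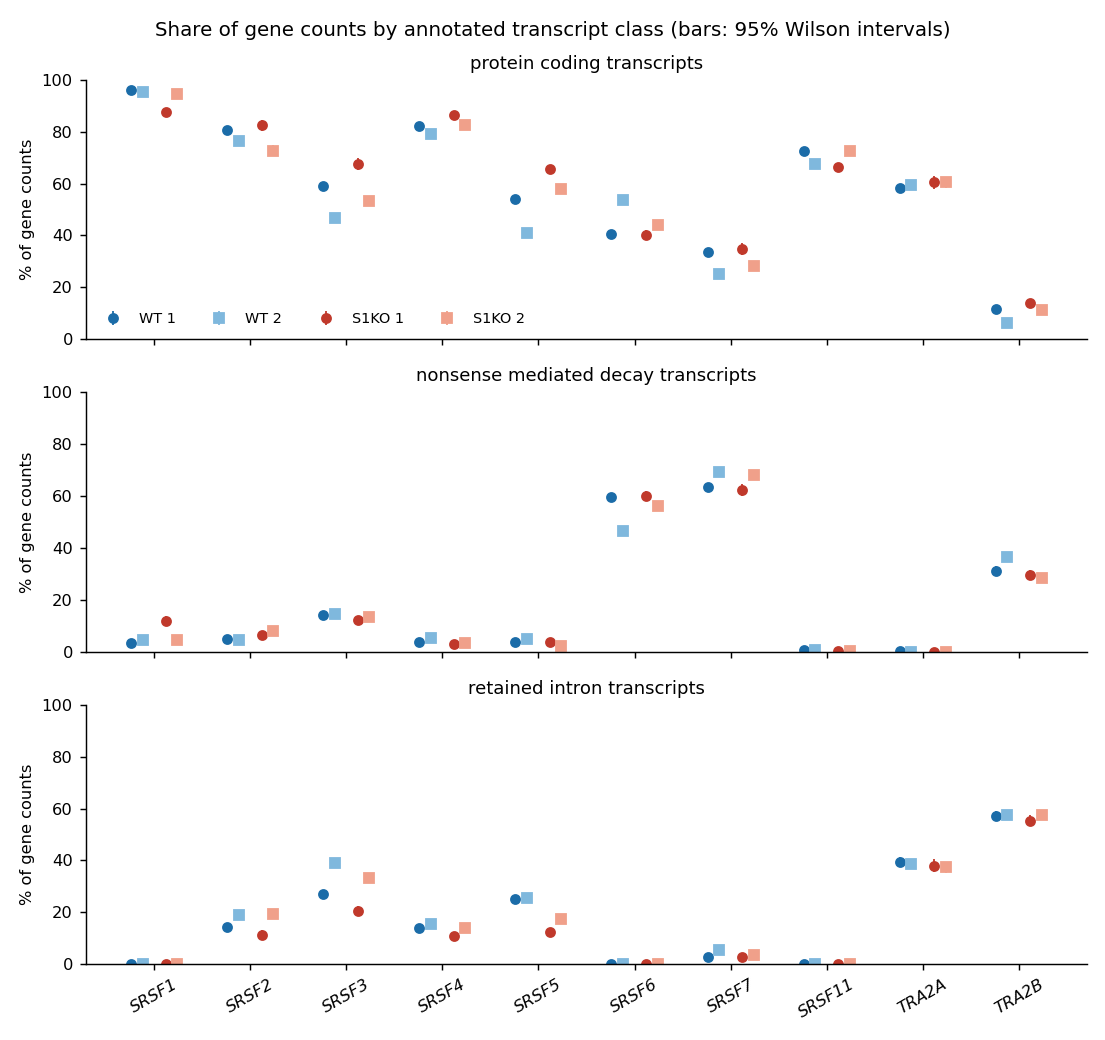
Percent of each gene's estimated counts (y axis) on protein_coding, nonsense_mediated_decay and retained_intron transcripts (3 panels) by gene (x axis) and library; bars are 95% Wilson intervals, mostly smaller than the symbols, and a gene with no transcript of a class is drawn at 0. SRSF6 and SRSF7 have decay shares of 46.42% to 69.45%, and the retained_intron share of SRSF5 is 25.25% and 25.40% in WT and 12.44% and 17.27% in S1KO.

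Across the 10 genes no class share passed the limma test, and 0.0% of all genes did in any of the 3 classes. A test that calls no gene at all says nothing about whether the shares of these 10 differed. Unadjusted p values under 0.05 were found for 1 gene of 10 in the decay class (SRSF11) and 1 of 8 in the retained_intron class (SRSF5), beside 504 of 5279 and 1100 of 7061 genes. The mean decay share was lower in S1KO in 7 of 10 genes, with libraries wholly below WT in 5, where 21.1% of all genes were. They were wholly above in 1, SRSF2, where 14.2% of all genes were. The mean retained_intron share of counts was lower in all 8 genes that have the class (in SRSF1 by a difference of -0.02 points), where 60.4% of all genes were lower. By TPM it was higher in TRA2B. Of these, 3 were wholly below WT, where 32.0% of all genes were. The median of the log2 odds difference in the retained_intron class was -0.25 for the SR genes and -0.27 for all genes, about the same size. Protein_coding shares were wholly higher in 3 genes and wholly lower in 1, beside 27.5% and 17.9% of all genes.

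Poison exon inclusion can be hidden by the annotated classes, since a transcript may carry the exon and be filed as retained_intron. Shares were therefore also summed over every transcript spliced to the start of each poison exon, a measure added after seeing the data. The TRA2B exon stood out among the 14. Transcripts spliced to it held 39.14% and 47.23% of TRA2B counts in WT (95% Wilson intervals 37.26% to 41.01% and 45.80% to 48.67%) and 68.18% and 66.72% in S1KO (66.23% to 70.08% and 65.02% to 68.42%). Both S1KO libraries lie well above both WT libraries, by 24.3 percentage points on average. The gap rests on a single short transcript, TRA2B-212, with 6.91% and 9.40% of counts in WT and 36.97% and 35.48% in S1KO. It runs past the exon into the next intron, so it does not show the exon spliced at both ends. TRA2B-206, which does, held 31.21% and 36.38% in WT and 29.55% and 28.37% in S1KO.

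The log2 odds for the TRA2B exon differed by 1.45 ± 0.48 (95% interval 0.15 to 2.75), with a limma p of 0.0359 and an adjusted p of 0.50 over 4031 exons. None of the 4031 passed (0.0%), 375 had an unadjusted p under 0.05, and 101 had a difference in points at least as large in the same direction. By TPM, the exon's transcripts took 60.79% and 71.41% in WT against 90.52% and 90.28% in S1KO. The direction depends on the denominator: among only those transcripts that span the exon's position, 79.11% and 90.98% in WT and 80.06% and 83.63% in S1KO were spliced to it, a log2 odds difference of -0.45. Transcripts that begin downstream of the exon took 50.52% and 48.09% of counts in WT and 14.83% and 20.22% in S1KO. Those that begin upstream and skip the exon took 10.34% and 4.68% in WT and 16.98% and 13.06% in S1KO. As shares, both groups that begin upstream, with and without the exon, were thus wholly higher in S1KO. Their members differed in CPM: TRA2B-206 overlapped between genotypes, TRA2B-212 and TRA2B-205 were higher in S1KO, and TRA2B-214 was lower. This split by start was not tested.

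Single TRA2B transcripts did not all move the same way. TRA2B-212, which consists of the first exon joined to the poison exon and a short run into the next intron and is annotated retained_intron, stood at 6.42 and 13.5 CPM in WT against 58.5 and 49.8 CPM in S1KO, a log2 difference of 2.44 ± 0.43. The edgeR adjusted p was 0.226 and that of DESeq2 was 1.59e-05. TRA2B-206, the annotated decay transcript with the exon in full and all coding exons after it, stood at 29 and 52.3 CPM in WT against 46.7 and 39.8 CPM in S1KO, with overlapping groups and a log2 difference of 0.09 ± 0.35. The coding transcript without the exon, TRA2B-205, stood at 5.45 and 4.24 against 21.2 and 13.8 CPM, a log2 difference of 1.85 ± 0.37 (edgeR adjusted p = 0.234, DESeq2 0.00285).

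Transcripts that begin downstream lay lower in S1KO or overlapped. TRA2B-215, which starts in the intron after the poison exon, stood at 31.7 and 43.6 CPM in WT against 11.4 and 20.2 CPM in S1KO (log2 difference -1.25 ± 0.38), and the coding TRA2B-201 at 3.88 and 2.85 against 0.636 and 0.952 CPM. TRA2B-210, which also carries the poison exon, was at 0 CPM in both WT libraries and at 1.91 and 3.67 CPM in S1KO. Longer and shorter transcripts of TRA2B share most of their exons, and kallisto divides shared reads by a model whose uncertainty is not in the files used here. P-values of single transcripts may therefore be too small.

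**Figure D3:**
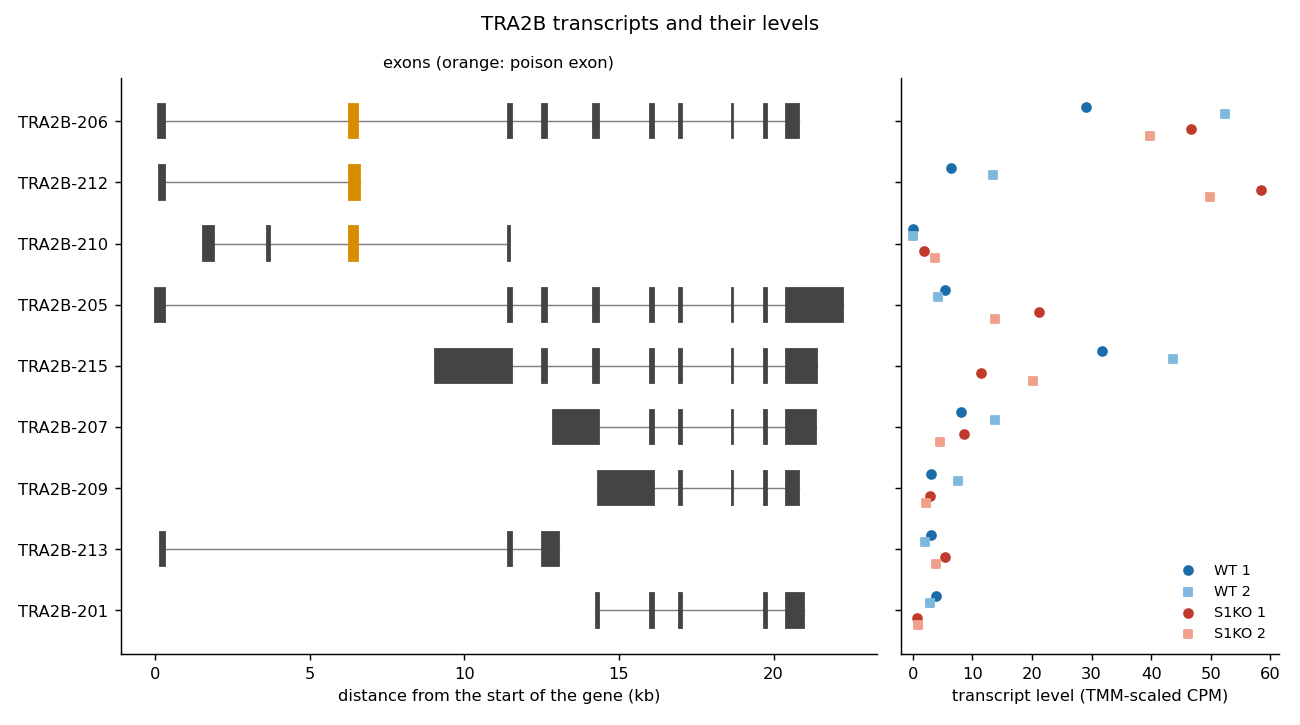
Left, exons of 9 TRA2B transcripts against the distance from the start of the gene in kb, with the poison exon in orange; right, the level of each transcript in TMM-scaled CPM in the 4 libraries. TRA2B-212 and TRA2B-205, which start at the 5′ end of the gene, are higher in both S1KO libraries, and TRA2B-215, which starts after the poison exon, is lower.

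Of the other 13 exons none lay wholly higher in S1KO, where 17.6% of all exons tested did, and 7 lay wholly lower, where 23.1% did. Of the 7, 5 are in SRSF4, and 3 of those have the same share because they are read from a single transcript, SRSF4-206. The SRSF6 exon was in 59.61% and 46.42% of counts in WT and 60.00% and 55.98% in S1KO, with a log2 odds difference of 0.29 ± 0.49. Transcripts spliced to the SRSF3 exon held 14.45% and 15.07% in WT and 13.40% and 14.27% in S1KO. For the 449-base SRSF7 exon the shares were 9.45% and 12.23% against 9.95% and 13.18%, and transcripts that hold its whole sequence took 62.55%, 66.47%, 61.61% and 67.64%. In these 3 genes the values of the genotypes overlapped or nearly touched.

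The 175-base SRSF4 exon was in 17.31% and 20.09% of counts in WT and 13.25% and 17.13% in S1KO, most of it from the long retained_intron transcript SRSF4-208. Larger differences in log2 odds than that of TRA2B were found for 2 exons with few counts. The 195-base SRSF4 exon had 1.0 and 6.1 counts in WT and 0.0 in both S1KO libraries (-1.92 ± 0.74), and the 276-base SRSF7 exon had 4.8 and 29 counts against 0.0 and 6.8 (-1.72 ± 1.36). The 69-base SRSF7 exon was in 0.91% and 2.34% of counts in WT and 0.85% and 0.37% in S1KO. In SRSF2 the stop of the decay transcript lies upstream of the 104-base exon, which was spliced into 10.82% and 14.78% against 9.15% and 13.49% of counts. The 79-base TRA2A exon is also part of protein_coding transcripts and holds no stop in the annotated frame, with shares of 43.76% and 36.74% in WT and 37.76% and 34.76% in S1KO. SRSF7-205, a decay transcript with the 449-base exon, had counts of 120.4 and 71.4 in WT and 0.0 in both S1KO libraries, which allows up to 0.196% and 0.116% of SRSF7 counts by counting error alone (edgeR adjusted p = 0.224, DESeq2 0.000635).

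Most of the gene-level gap of SRSF11 lay on a few of its 16 transcripts. SRSF11-203, a coding transcript that starts at the 5′ end of the gene, stood at 79.9 and 68.9 CPM in WT against 256 and 216 CPM in S1KO, a log2 difference of 1.66 ± 0.21 (edgeR adjusted p = 0.223, DESeq2 1.42e-10). SRSF11-201, a coding transcript with a later start, stood at 102 and 129 against 168 and 188 CPM. The coding transcripts SRSF11-202 and SRSF11-204 overlapped between genotypes, at 37.8 and 43.7 against 33.8 and 44.7 CPM and at 11.6 and 10.6 against 10.3 and 12.3 CPM.

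SRSF11-208, annotated processed_transcript, had the largest relative gap of the SRSF11 transcripts above 10 CPM in WT, at 11.5 and 14.0 CPM in WT and 143 and 91.4 CPM in S1KO. The log2 difference was 3.20 ± 0.32 (edgeR adjusted p = 0.223, DESeq2 4.11e-17), and it took 3.60% and 3.75% of SRSF11 counts in WT against 20.17% and 14.41% in S1KO. It is the one annotated SRSF11 transcript with a 33-base exon at chr1:70247117-70247149 (GRCh38, plus strand), which was singled out after its values were seen and is shown for its stop codon, in capitals.
SRSF11-208 exon: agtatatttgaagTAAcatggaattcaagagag
Read on in the frame of the coding transcript SRSF11-201 from the exon before it, this exon meets a stop that ends 16 bases in. Reads given to SRSF11-208 need not lie on these 33 bases, since its other exons are shared with coding transcripts.

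SRSF11-216 and SRSF11-205 are short processed_transcripts that start inside introns near the 3′ end. SRSF11-216 stood at 5.20 and 4.68 CPM in WT against 28.5 and 27.4 CPM in S1KO, a log2 difference of 2.50 ± 0.25 (edgeR adjusted p = 0.223, DESeq2 3.31e-13). SRSF11-205 stood at 0.108 and 0.248 against 9.46 and 3.86 CPM (edgeR adjusted p = 0.223, DESeq2 9.17e-06). Together with SRSF11-208 they took 5.26% and 5.07% of SRSF11 counts in WT and 25.54% and 19.34% in S1KO.

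The transcripts also differ at the start of the last exon, where annotated splice sites lie 3 bases apart at positions 70250608 and 70250611. The 5 transcripts joined at the first site took 66.20% and 73.37% of counts in WT and 58.59% and 60.81% in S1KO. The 3 joined at the second took 27.29% and 20.73% in WT and 39.38% and 36.36% in S1KO, without overlap. SRSF11-214, which starts later in the gene and is not coding, went with the first site and stood at 55.0 and 82.5 CPM in WT against 41.2 and 34.5 CPM in S1KO. These group shares were chosen with the values in view and were not tested.

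**Figure D4:**
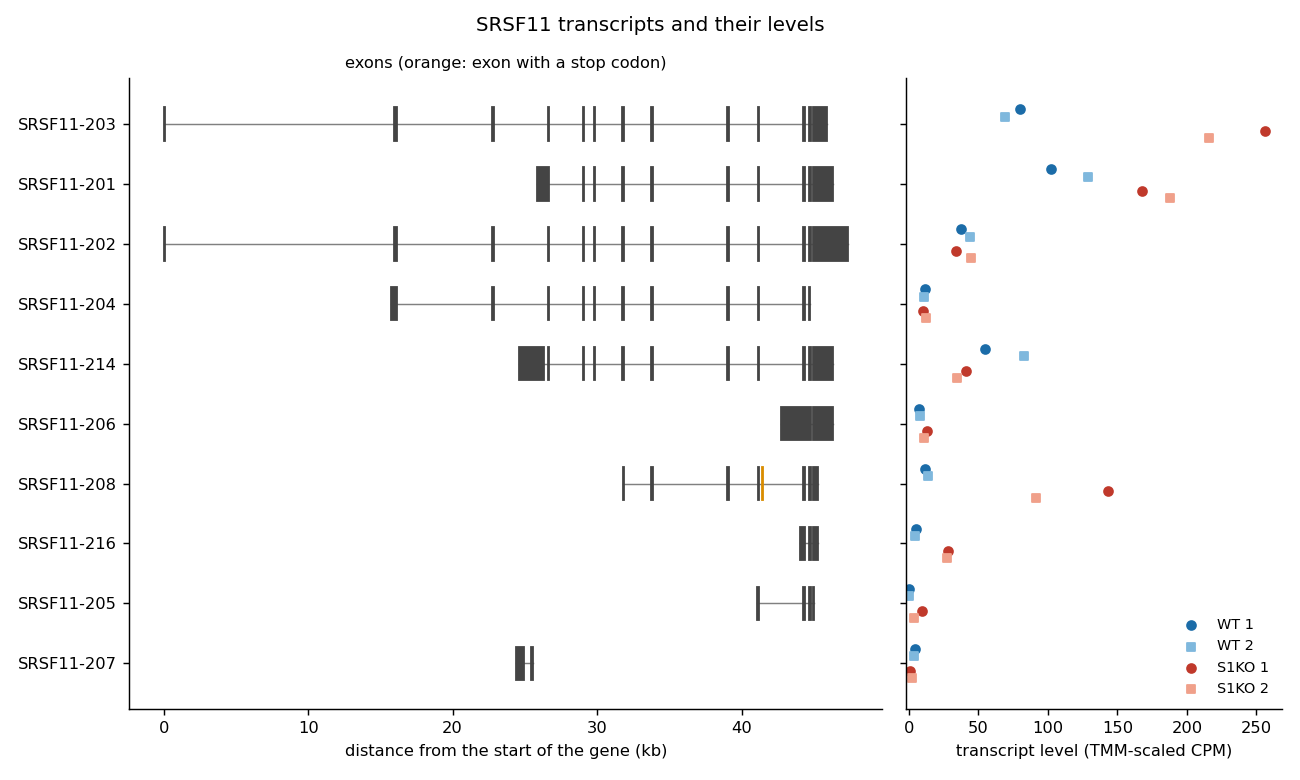
Left, exons of 10 SRSF11 transcripts against the distance from the start of the gene in kb, with the 33-base exon that holds a stop codon in orange; right, the level of each transcript in TMM-scaled CPM in the 4 libraries. SRSF11-203, SRSF11-201, SRSF11-208 and SRSF11-216 are higher in both S1KO libraries, SRSF11-202 overlaps, and SRSF11-214 is lower.

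Of the 113 SR transcripts, 83 passed the filter on low counts. None of the 83 passed the edgeR threshold, as none of the 53714 transcripts tested did (0.0%). At an unadjusted p under 0.05 there were 16, with 9 higher and 7 lower in S1KO, beside 13.9% of all transcripts. DESeq2 called 8 higher, where it called 3.55% of all, and 2 lower, where it called 2.84% (6.39% in both directions). The 8 are SRSF11-203, SRSF11-205, SRSF11-208, SRSF11-216, TRA2B-205, TRA2B-210, TRA2B-212 and SRSF5-203, and the lower ones are SRSF2-203 and SRSF7-205. SRSF2-203, a coding SRSF2 transcript, stood at 49.2 and 44.6 CPM in WT against 21.8 and 25.5 CPM in S1KO. Libraries lay wholly higher in S1KO for 18 of the 83 and wholly lower for 22, beside 23.2% and 27.6% of all transcripts.

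Among the proteins that act on these transcripts, decay factors held the genes that passed the test. UPF2, the bridge between UPF1 and UPF3, rose from 102 and 106 CPM in WT to 290 and 247 CPM in S1KO, by 1.37 ± 0.17 on the log2 scale (edgeR adjusted p = 0.0405). UPF3B, which ties the UPF complex to the exon junction complex, rose from 48.5 and 48.7 CPM to 162 and 126 CPM, by 1.56 ± 0.18 (edgeR adjusted p = 0.0324). Both passed in 8 of 13 alternatives and kept their sign in 13. The edgeR calls were lost without S1KO 1 (adjusted p = 0.686 for both) and without S1KO 2 (adjusted p = 0.341 and 0.308). They were also lost with protein_coding transcripts alone (0.0817 and 0.0574) and, in limma, on TPM (0.0731 and 0.349).

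The other decay factors did not pass. UPF3A, the paralog of UPF3B, stood at 91.6 and 99.3 CPM in WT against 158 and 165 CPM in S1KO (log2 difference 0.76 ± 0.16, edgeR adjusted p = 0.0871). EIF4A3 and MAGOH, both of the exon junction complex, had log2 differences of 0.54 ± 0.21 and -0.50 ± 0.17. In all, 2 of 14 decay factors passed, both higher, where 0.942% of all genes passed, with a list median of -0.01 beside -0.02 for all genes. Of 7 transcripts known as decay targets 3 were tested, and the others had no entry under their gene names in the data. ATF4, the stress-response transcription factor, stood at 313 and 448 against 261 and 278 CPM, TBL2 at 37.3 and 31.5 against 20.8 and 27.7 CPM, and GADD45B, a stress-induced growth regulator, at 32.5 and 105 against 22.1 and 29.1 CPM. All 3 lay wholly lower in S1KO, as 25.7% of all genes did, without passing the test, and the WT libraries of GADD45B are far apart.

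Of 8 other SR and SR-related genes none passed. SREK1, an SR-related regulator of splicing, stood at 144 and 160 CPM in WT against 314 and 276 CPM in S1KO (log2 difference 0.96 ± 0.17, edgeR adjusted p = 0.0704, DESeq2 1.64e-05), but the difference was -0.55 when protein_coding transcripts alone were counted. SRRM1, a splicing coactivator, stood at 118 and 135 against 218 and 205 CPM (0.74 ± 0.17, edgeR adjusted p = 0.0953, DESeq2 0.00192). SRSF9 stood at 103 and 92.9 against 71.9 and 75.9 CPM (-0.41 ± 0.16), a difference of -0.01 with protein_coding transcripts only.

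None of the 7 kinases of SR proteins passed. SRPK2 stood at 40.8 and 52.3 CPM in WT against 99.5 and 80.0 CPM in S1KO (0.95 ± 0.20, edgeR adjusted p = 0.0930, DESeq2 0.00256), and its log2 difference was -0.12 on TPM, where the median of all genes was -0.78. CLK3 and DYRK1A had log2 differences of 0.33 ± 0.15 and -0.38 ± 0.18.

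The 19 hnRNP and other splicing regulators, several of which oppose SR proteins, mostly lay lower in S1KO. Their libraries were wholly below WT in 13 genes and wholly above in 2, beside 25.7% and 26.0% of all genes, with a median log2 difference of -0.30, and none passed in edgeR. PTBP2, the neuronal paralog of the polypyrimidine tract binding protein, stood at 23.5 and 29.5 against 13.6 and 15.7 CPM (-0.85 ± 0.21, edgeR adjusted p = 0.115, DESeq2 0.0279). HNRNPD stood at 272 and 262 against 195 and 184 CPM, and HNRNPH1 at 577 and 788 against 406 and 467 CPM.

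**Figure D5:**
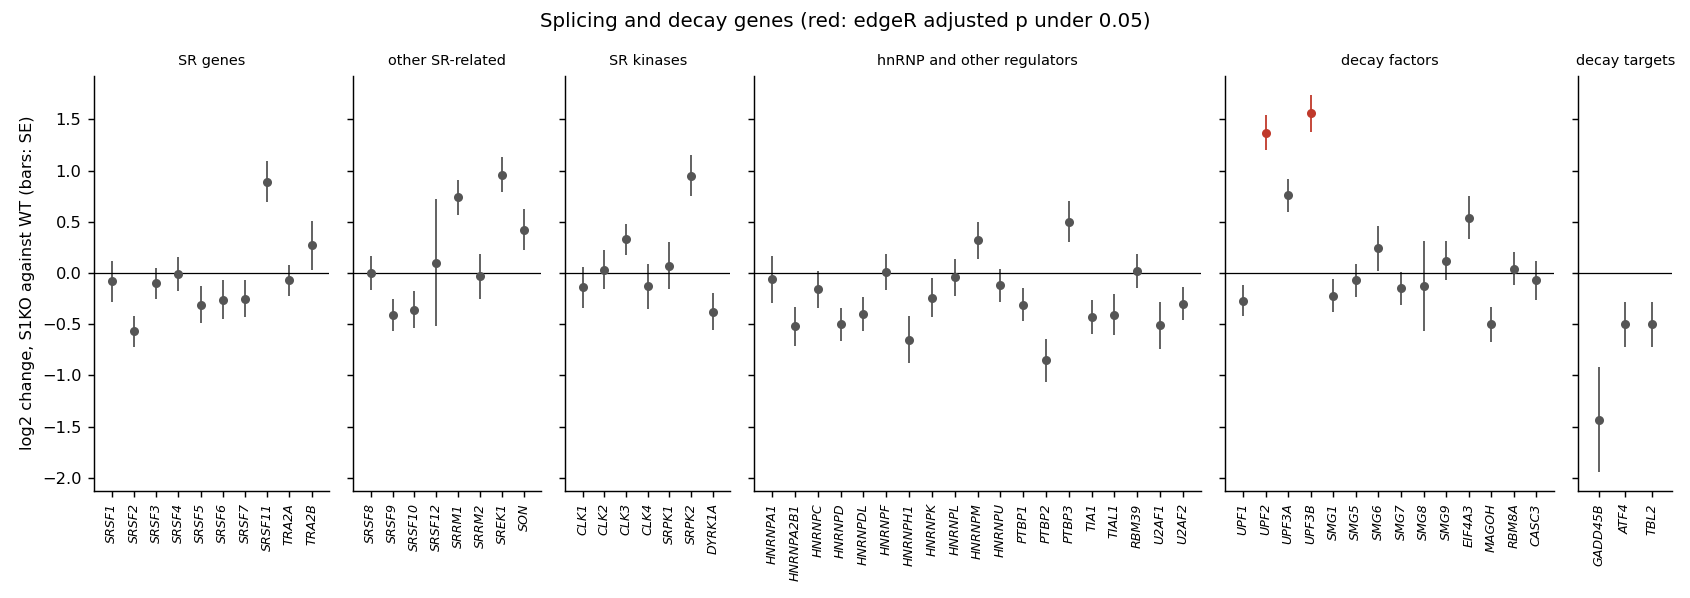
Log2 difference between S1KO and WT with its SE (y axis) for each tested gene of the SR genes and of 5 lists of genes that act with or on them (x axis), from edgeR; red marks an adjusted p under 0.05. UPF2 at 1.37 and UPF3B at 1.56 are the red points, SRSF11 stands at 0.89, and most of the 19 hnRNP and other regulators lie below 0.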

How the data were processed

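RNA of 4 libraries (2 WT, 2 S1KO) was quantified by the authors with kallisto on hg38 (per the submitters' processing notes), with version and transcript set not given in the sources used here. Deposited values are estimated counts and TPM per transcript, per the file headers, for 188753 transcripts in each library. Classes came from GENCODE 29: 169797 transcripts matched by identifier, 15521 took a gene by symbol, and 3435 with no gene name (0.323% to 0.643% of counts) were left out. Of the SR transcripts 7 have another version than in GENCODE 29. Sequences come from GENCODE 29 transcripts on GRCh38.

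Estimated counts were rounded and tested two-sided with edgeR 4.0.16 (quasi-likelihood, TMM, filterByExpr, R 4.3.3) over all genes or transcripts. Class shares were tested with limma 3.58.1 on log2 odds with a prior of 0.5 counts, over genes with a mean count of at least 50. Adjusted p-values are Benjamini-Hochberg with a threshold of 0.05. Alternatives included DESeq2 1.42.0, other filters and scaling, TPM (pseudocount 1) and leaving out each library. An exact permutation test of 2 against 2 libraries cannot go below p = 0.333. On simulated data the gene test recovered 21% of log2 changes of 1 and 81% of log2 changes of 2. The share test, run on decay shares, recovered 0% of changes of 2 and of 4 in log2 odds. In this setting the lack of calls for decay shares therefore cannot tell differences of these sizes from none. The other classes and the alternative settings were not simulated. Named are all 10 SR genes, the transcript with the most counts in each class and those called in an alternative or with a value that a result turns on, and from each list the genes past the threshold and the 3 of smallest p. Members and lists were chosen with earlier results of these data known. Replicate numbers were not treated as pairs. Deviations of WT 1 and S1KO 1 from their group means had a correlation of 0.02 over 10546 genes, which cannot exclude a shared batch.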

Additional observations from a re-analysis of the deposited data

How the results depend on the processing

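The number of SR genes past the threshold was 0 in the edgeR test, 2 with DESeq2, 1 with no filter, 1 with the offset for effective length, 3 with limma on TPM and 1 with limma on TPM without mitochondrial genes; leaving out 1 library gave 0 to 2, the 2 without WT 2. Over all genes, 145 calls became 1155 with DESeq2, 1361 with no filter, 224 with a stricter filter, 21 with protein_coding transcripts only and 2896 with limma on TPM. With the replicate block there were 0 calls over all genes and 0 in the splicing and decay lists. INPP5D then had an edgeR adjusted p of 0.0501. The labels do not say if replicate numbers pair libraries. Leaving out 1 library gave 0 to 2140 calls over all genes, 0 without S1KO 1 or S1KO 2, 1978 without WT 1 and 2140 without WT 2; the lone library is then assumed to vary like the other group. SR transcripts past the threshold went from 0 to 10 with DESeq2 and 7 with no filter, and all transcripts from 0 to 3035 and 1438. Decay shares gave 1 call over all genes with a minimum of 200 counts and 1 with a prior of 5 counts. Retained_intron shares gave 16 with TPM shares and 4 with the prior of 5. The 2 list genes became 10 with DESeq2, 8 with no filter, 0 with protein_coding transcripts only and 15 with limma on TPM, and 0 to 11 leaving out 1 library.

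Log2 differences turned sign as follows. SRSF1 was 0.17 without WT 1, 0.09 with the length offset and 0.02 on TPM without mitochondrial genes. SRSF4 was 0.01 with the stricter filter, 0.14 without WT 2, 0.05 with protein_coding transcripts only and 0.0 with the length offset. SRSF3 and SRSF5 were both 0.08 with protein_coding transcripts only, and SREK1 was -0.55. TRA2B was -0.03 without WT 1, and TRA2B-206 was -0.27 without WT 1 and -0.03 without S1KO 1. The TRA2B poison exon was -0.45 over transcripts that span it. The log2 odds difference of the TRA2B protein_coding class was 0.64 in the main fit and as low as -1.93 among the alternatives. Leaving out 1 library in turn gave -0.29 to 0.17 for SRSF1, -0.15 to 0.14 for SRSF4, -0.03 to 0.65 for TRA2B and -0.27 to 0.58 for TRA2B-206. On TPM, SRPK2 was -0.12, CLK3 -1.01 and EIF4A3 -0.37, and CLK3 was -0.04 with the length offset and -0.12 on TPM without mitochondrial genes. The cause of these moves was not tested. Shares read from few counts, such as the 3.5 or fewer of the TRA2A decay transcript, are limited by depth.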
